A study of Mus musculus with 24 samples.

Results

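The aryl hydrocarbon receptor (AhR) target genes examined here are Cyp1a1, Cyp1a2, Cyp1b1, Ahrr, Tiparp and Nqo1, 6 of the 55413 genes of the GENCODE vM21 annotation. They were listed by name, as reported AhR targets, to ask whether the auxin IAA is accompanied by a change of their chromatin that is separate from the loss of the protein CTCF. Open chromatin was mapped by ATAC-seq, a transposase assay that cuts accessible DNA, in 24 libraries of the mouse embryonic stem cell line E14, in 12 groups of 2, each with 1 deposited peak list. Every library came from cells whose CTCF is fused to an auxin-inducible degron (AID), so that added IAA triggers its destruction.

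IAA was given for 12 h to 8 libraries. In serum-free medium these were 2 of a control line (labelled as the overexpressed control), 2 of a line overexpressing wild type CTCF and 2 of a line overexpressing mutated CTCF, and the same control line without IAA gave 2 libraries for comparison. These 8 libraries are called the CTCF lines. In serum, the degron cells gave 2 libraries without IAA and 2 with it. The labels of these 4 libraries give serum, while the growth protocol names serum-free medium for all. A further 12 serum-free libraries without IAA came from degron cells with the hairpin shluci or 1 of 2 hairpins (shRNA1, shRNA2) in a Chd4 set and a Chd8 set. The labels do not say what the CTCF mutation changes, and no library of cells without the degron received IAA. An effect of IAA itself and an effect of CTCF degradation therefore cannot be told apart in the control line or in serum. In the overexpressing lines, IAA and the added CTCF cannot be told apart from each other.

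AhR is a transcription factor that waits in the cytoplasm with HSP90 and its co-chaperones until a small aromatic ligand binds it. It then enters the nucleus, pairs with ARNT and binds the xenobiotic response element, whose core is written TNGCGTG. Indole compounds, the class to which IAA (indole-3-acetic acid) belongs, are known as a source of AhR ligands. Cyp1a1, Cyp1a2 and Cyp1b1 encode cytochrome P450 enzymes that oxidise such ligands, and Cyp1a2 is mainly known as a liver enzyme. Ahrr encodes a repressor that competes with AhR for ARNT, and Tiparp encodes an ADP-ribosyltransferase that limits AhR activity. Nqo1 encodes a quinone reductase that is also a target of NRF2, the oxidative stress factor, whose element is written TGACNNNGC here.

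The sequences below are the stretches of the 6 loci on which the results turn. They lie in windows (a peak summit with 250 bp on either side) that are named by gene and by distance in bp from the nearest annotated start, with minus for upstream. Each stretch is printed 5′ to 3′ along the gene from GRCm38. The first 5 carry TNGCGTG matches on either strand in capitals. These are the cluster upstream of Cyp1a1 in an intron of its longer transcript, the intergenic site near Cyp1a2 that was higher with IAA in the CTCF lines, the intronic and promoter sites of Ahrr, and the site upstream of Tiparp.
Cyp1a1 −1095, chr9:57696530-57696742, plus strand: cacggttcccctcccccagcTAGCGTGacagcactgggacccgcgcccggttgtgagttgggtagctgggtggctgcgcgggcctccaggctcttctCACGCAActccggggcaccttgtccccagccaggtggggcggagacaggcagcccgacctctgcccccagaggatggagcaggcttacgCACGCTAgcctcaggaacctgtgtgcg
Cyp1a2 +14113, chr9:57668014-57668103, minus strand: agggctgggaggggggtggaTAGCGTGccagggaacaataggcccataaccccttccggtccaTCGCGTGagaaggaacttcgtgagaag
Ahrr +463, chr13:74259980-74260086, minus strand: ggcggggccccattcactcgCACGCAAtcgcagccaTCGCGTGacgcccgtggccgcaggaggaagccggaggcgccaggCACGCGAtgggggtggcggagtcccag
Ahrr +2, chr13:74292334-74292380, minus strand: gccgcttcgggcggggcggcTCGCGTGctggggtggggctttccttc
Tiparp −422, chr3:65528016-65528062, plus strand: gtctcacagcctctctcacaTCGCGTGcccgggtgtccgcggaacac
The next stretch, upstream of Cyp1b1, holds 2 TNGCGTG matches and, further along, an exact match of the 14-base CTCF consensus, all in capitals.
Cyp1b1 −799, chr17:79715713-79715954, minus strand: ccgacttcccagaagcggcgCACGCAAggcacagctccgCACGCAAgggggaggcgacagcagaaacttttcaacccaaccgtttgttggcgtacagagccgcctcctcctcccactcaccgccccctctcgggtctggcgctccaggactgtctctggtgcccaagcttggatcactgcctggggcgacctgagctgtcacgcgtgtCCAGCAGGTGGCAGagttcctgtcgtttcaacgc
The last 2 stretches have the closest CTCF consensus match of their window in capitals, with 2 mismatches upstream of Ahrr and 1 mismatch beyond the end of Nqo1.
Ahrr −9105, chr13:74301354-74301496, minus strand: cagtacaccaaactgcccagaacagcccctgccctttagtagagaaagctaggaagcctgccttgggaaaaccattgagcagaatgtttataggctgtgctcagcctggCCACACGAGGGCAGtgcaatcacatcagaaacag
Nqo1 +16353, chr8:107386776-107386829, minus strand: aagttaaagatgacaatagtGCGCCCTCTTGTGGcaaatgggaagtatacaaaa

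Of the 61 windows that lay within the 6 genes with 20 kb on either side, 10 held at least 1 TNGCGTG match and 4 held the CTCF consensus with at most 1 mismatch. Across all 233781 windows of the genome, 6.25% held TNGCGTG, 20.5% held TGACNNNGC and 5.56% held the CTCF consensus. The window 1095 bp upstream of the main Cyp1a1 start held 4 TNGCGTG matches, of which 3 are printed, at 1208, 1063, 986 and 897 bp upstream. RefSeq promoters (short sequences spanning the gene start, GRCm38.p6) were matched for all 6 genes. Of these, 1 held TNGCGTG, that of Ahrr, against 5.07% of the 32851 promoters in the table, and none held TGACNNNGC, against 12.4%. A match is a string of letters and not a measured binding site.

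The promoter measure is the highest percentile, by the authors' −log10 p within a list, of the peaks within 1 kb of any annotated start, with 0 where no peak was called. A percentile of 90 means that the peak outranks 90% of the peaks of its list. Before ranking, the lists of the libraries compared were cut to the shortest, 120137 peaks for the CTCF lines and 59786 in serum, and percentiles are not compared between these 2 sets. As deposited, the CTCF-line lists had 120137 to 155087 peaks and those in serum 59786 to 82502. The Chd4 and Chd8 sets had 80619 to 166697 peaks, which were short, with a median length of 75 to 138 bp against 283 to 456 bp in the CTCF lines. All 8 embryonic stem cell markers examined were called in all 8 lists of the CTCF lines, and 7 of 8 in all 4 serum lists. Of 4 hepatocyte markers, 1 passed the filter in the CTCF lines and none in serum, and of 4 feeder fibroblast markers 3 passed it in each. The filter asks for a call in at least 2 libraries.

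No member promoter had groups apart, that is, with and without IAA not overlapping, in either medium. The count was 0 of 6 in the CTCF lines (2 libraries without and 6 with IAA), where 5.07% of 24462 tested genes were higher and 7.35% lower with IAA. It was 0 of 6 in serum, where 18.2% of 20120 genes were higher and 19.3% lower. Cyp1a2 did not pass the filter, so 5 of 6 members could be tested. An exact two-sided permutation test over both media (labels moved within the CTCF lines and within serum, smallest possible p 0.0119) put 0 of 6 members under 0.05, against 2.88% of genes higher and 5.57% lower. No gene of the 24897 tested passed a Benjamini-Hochberg adjustment in this test, with a smallest adjusted p of 0.356. Labels name the libraries of a group as replicates without saying that they came from separate cultures, so these p-values measure the spread between libraries. In the CTCF lines the libraries with IAA come from the control, wild type CTCF and mutated CTCF lines. Those without IAA come from the control line alone. The test moves labels among all of them alike, so differences between lines enter its p-values.

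Of the enzyme genes, Cyp1a1 (chr9:57687928-57703824, plus strand) had a promoter peak in every list of the CTCF lines and of serum. Its promoter percentile was 66.3 and 71.7 in the control line without IAA and 72.3 and 73.4 with IAA. With IAA it was 64.0 and 75.4 in the wild type CTCF line and 69.2 and 74.9 in the mutated CTCF line. The libraries with and without IAA overlapped, and the mean difference of 2.55 lay within the replicate SD of 4.91. In serum the values were 64.0 and 49.1 without IAA and 67.5 and 23.9 with it, a difference of -10.8 against a replicate SD of 23.1. Over both media the exact two-sided permutation p was 0.917.

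The strongest peak within 1 kb of a Cyp1a1 start was the one over the cluster of TNGCGTG matches in all 8 CTCF-line lists. The window of that cluster had a mean percentile of 69.0 without and 71.5 with IAA in the CTCF lines. In serum it was called in both libraries without IAA and in 1 of 2 with IAA. Its exact two-sided permutation p over both media was 0.917. The cluster was thus called without IAA as well as with it, and its rank did not separate the 2 states.

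Cyp1a2 (chr9:57676937-57683703, minus strand), which lies head to head with Cyp1a1 at a distance of 4224 bp, had no promoter peak in most lists. Among the CTCF lines its promoter was called in 1 list of 8, that of replicate 1 of the mutated CTCF line, at percentile 3.93. None of the 4 serum lists called it. The other 2 P450 genes were called in all of these 12 lists.

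Cyp1b1 (chr17:79701537-79715061, minus strand) had promoter percentiles of 82.6 and 85.4 in the control line without IAA and 73.9 and 64.7 with IAA. With IAA the wild type CTCF line gave 85.4 and 86.0, and the mutated CTCF line 82.5 and 79.3. The 2 libraries of the control line with IAA were the lowest of the 8. Those of the wild type CTCF line overlapped the libraries without IAA. Both of the mutated CTCF line lay below the libraries without IAA, the nearer at 82.5 against 82.6. The mean difference was -5.35 with a replicate SD of 3.58. In serum the values were 58.1 and 70.3 without and 62.0 and 65.5 with IAA, and the exact two-sided permutation p over both media was 0.476. With starts taken within 500 bp, the Cyp1b1 promoter was higher in serum with groups apart, where 18% of 18955 genes were higher and 19% lower at that setting, and the exact permutation p over both media was 0.143.

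Of the feedback regulators, Ahrr (chr13:74211118-74292331, minus strand) has 6 distinct annotated starts, and its strongest promoter peak lay at the internal, noncoding ones in the CTCF lines. By this measure it stood at 88.7 and 86.1 in the control line without IAA and 90.1 and 88.8 with IAA. The values with IAA were 85.0 and 90.0 in the wild type CTCF line and 88.0 and 87.9 in the mutated CTCF line. In serum they were 93.5 and 83.4 without and 82.0 and 86.7 with IAA. The groups overlapped in both media, with an exact two-sided permutation p of 0.702. The serum values mix 2 sites, since those without IAA are of the peak at the main coding start and those with IAA of the internal peak, and each site taken alone was apart in serum, in opposite directions (the windows Ahrr +2 and Ahrr +463). The direction at Ahrr +463 turned, from 23.1 to -34.6, when the summit had to lie in the window.

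Tiparp (chr3:65528410-65555518, plus strand) stood at 91.6 and 90.4 without IAA and 89.5 and 91.0 with IAA in the control line. The wild type CTCF line had 93.3 and 91.3, and the mutated CTCF line 91.7 and 92.5. In serum the percentiles were 79.2 and 87.6 without and 79.9 and 77.8 with IAA. The groups overlapped in both media and the exact two-sided permutation p was 0.631. The strongest Tiparp peak covered the printed TNGCGTG match, which lies 374 bp upstream in an exon of the noncoding gene 4931440P22Rik.

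Nqo1 (chr8:107388225-107403206, minus strand) had the highest ranked promoter of the 6 genes in every one of these 12 lists. It stood at 98.1 and 97.3 without IAA and 98.2 and 98.5 with IAA in the control line. The wild type CTCF line gave 98.8 and 98.1 and the mutated CTCF line 97.9 and 97.3. In serum all 4 lists lay between 99.6 and 99.9, and the exact two-sided permutation p was 0.571. The groups with and without IAA overlapped in both media.

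**Figure D1:**
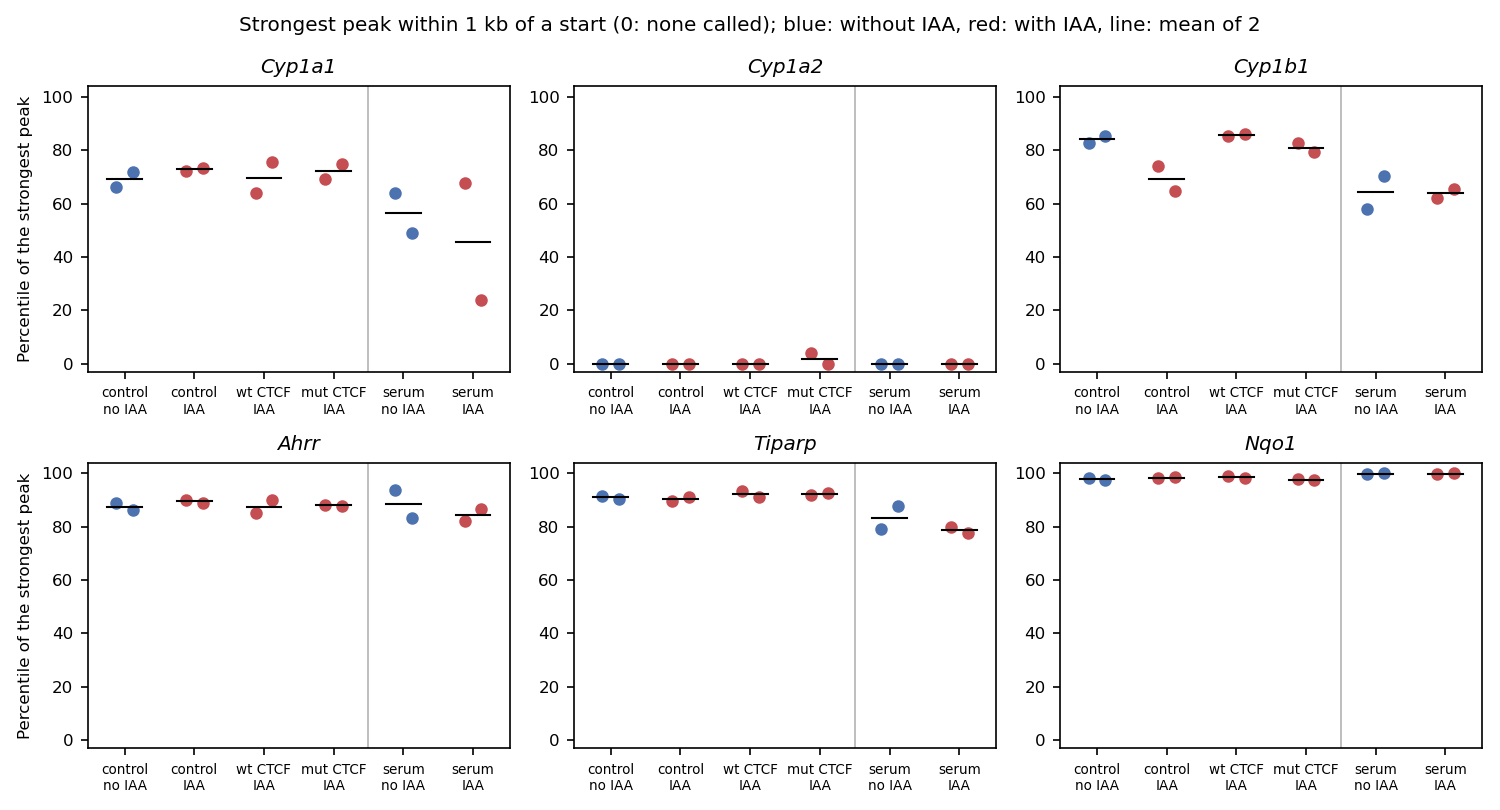
The vertical axis is the percentile of the strongest peak within 1 kb of a start of each of the 6 genes (0 where none was called), for the 8 libraries of the CTCF lines and, right of the grey line, the 4 serum libraries. Each point is 1 library and each bar the mean of 2; blue and red points overlap in every panel, and Cyp1a2 is at or near 0 throughout.

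When starts of protein-coding transcripts alone were used, the Ahrr promoter was lower with IAA in both media, and it was the 1 member of 6 for which this setting changed the call. At the 2 coding starts, the window centred 2 bp from the main start had percentiles of 82.0 and 80.4 in the control line without IAA and 76.8 and 71.8 with IAA. With IAA the wild type CTCF line gave 79.0 and 67.2, and the mutated CTCF line 70.4 and 70.5. In serum the values were 93.5 and 83.4 without IAA and 77.2 and 76.4 with it. Both libraries without IAA were above every library with IAA in each medium. The mean difference was -8.59 in the CTCF lines and -11.6 in serum. With lists at their deposited length the groups of this window overlapped in the CTCF lines, and the exact two-sided permutation p was 0.0357. They stayed apart in both media with lists cut to 50%, with −log10 q of at least 10 and with the summit in the window. The p of the same test was 0.0119 at each of these settings.

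The exact two-sided permutation p of the Ahrr coding promoter was 0.0119, the smallest the design can give, and 0.340 after Benjamini-Hochberg adjustment over all genes. With coding starts, 5.72% of 15981 genes were lower and 3.06% higher at p under 0.05, and with groups apart 7.08% were lower and 4.82% higher in the CTCF lines, and 19.2% lower and 17.5% higher in serum. With all starts and ranking by the deposited fold, the Ahrr promoter was lower with groups apart in the CTCF lines, where 6.22% of 24580 genes were lower and 4.85% higher at that setting, but not in serum, with a p of 0.0595 by the exact permutation test. The capitals in the Ahrr +2 stretch above mark the TNGCGTG match of this promoter, 29 bp upstream of the main start.

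The neighbouring window, 702 bp upstream of the main Ahrr start, was called by no library without IAA and by all 6 with IAA in the CTCF lines, where 0.459% of 180480 windows were called by the IAA group alone and 0.832% by the group without IAA alone. Its percentiles there were 76.8 and 71.8 in the control line, 28.8 and 39.7 in the wild type CTCF line and 34.8 and 70.5 in the mutated CTCF line. The serum libraries stood at 0 and 83.4 without IAA and at 77.2 and 76.4 with it, so the groups overlapped. The value equals that of Ahrr +2, as when 1 peak spans both windows, in 3 of the 6 libraries with IAA of the CTCF lines, in both serum libraries with IAA and in 1 of 2 without it. Where the peak's summit had to lie in the window, the CTCF lines were no longer apart, and the exact two-sided permutation p moved from 0.0357 to 0.714. It was 0.357 with lists cut to 50% and with −log10 q of at least 10, and the mean difference over both media of 44.4 became 23.6 without replicate 1 and 65.3 without replicate 2 of the serum libraries without IAA. A peak that spans several windows gives each of them its percentile.

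Accessibility around the genes was described by the number of peaks in the gene body with 20 kb on either side. In the CTCF lines 1 of 6 members, Cyp1a2, had groups apart, in the higher direction, where 1.43% of 43277 genes were higher and 2.05% lower. In serum the count was 0 of 6, with 7.72% of 37909 genes higher and 11.5% lower. The exact permutation test over both media put 0 of 6 members under 0.05, against 0.883% of genes higher and 1.85% lower, and the smallest adjusted p of all genes was 1.

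The Cyp1a2 locus held 2 and 3 peaks in the control line without IAA and 4 and 7 with IAA. With IAA it held 7 and 5 in the wild type CTCF line and 6 and 5 in the mutated CTCF line. Every library with IAA had more peaks than either without, and the means were 2.50 and 5.67 (replicate SD 1.37). In serum the locus held 1 and 2 peaks without IAA and 1 and 1 with it. The exact two-sided permutation p over both media was 0.107, and 1 after adjustment.

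The call at Cyp1a2 depended on the list length, the peak threshold and the flank. With lists cut to 50% of the shortest, the locus held 1 and 1 peaks without IAA and 1 to 3 with it. With peaks of a −log10 q of at least 10 it held 2 and 2 without and 1 to 3 with IAA, and with 10 kb on either side 0 and 1 without and 1 or 2 with IAA. With 50 kb on either side it held 10 and 9 without and 10 to 13 with IAA. In these 4 settings the groups overlapped.

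Among the windows of this locus, the one centred 14113 bp downstream of the noncoding Cyp1a2 start, with 2 TNGCGTG matches, was at 0 and 24.7 in the control line without IAA. With IAA it was at 46.2 and 35.0 in the control line, 55.7 and 41.8 in the wild type CTCF line and 52.7 and 56.2 in the mutated CTCF line. All 6 libraries with IAA were above both without, and all 4 serum libraries were at 0. The exact two-sided permutation p over both media was 0.0714.

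Against all serum-free libraries, with lists cut to 80619 peaks, this Cyp1a2 window was called by 6 of 6 with IAA and 0 of 14 without. Of 169521 windows tested in this way, 0.140% were called by the IAA group alone and 0.0118% by the group without it alone. The 12 added libraries without IAA are the Chd4 and Chd8 sets, which hold no library with IAA and shorter peaks, so library set and IAA cannot be told apart there. The window lost its separation when lists were cut to 50% of the shortest, when −log10 q had to be at least 10 and when the summit had to lie in the window.

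Neighbouring windows at 18265 and 21273 bp, without a TNGCGTG match, were each called by none of the 2 libraries without IAA and by 5 of 6 with IAA, but neither had groups apart, and each had an exact two-sided permutation p of 0.214. Of the 51 windows of the member loci tested there, 4 (these, Ahrr −702 and Ahrr −10230) were called by neither library without and at least 5 with IAA, a pattern looked for after the values were seen, and 0 by both without and at most 1 with it, against 1.54% and 2.14% of all windows. The window at 18265 bp was at 0 in replicate 2 of the wild type CTCF line and between 32.2 and 59.1 in the other 5. The one at 21273 bp was at 0 in replicate 1 of that line and between 6.05 and 46.4 in the others. Both of these were at 0 in all 4 serum libraries. The windows +14632 and +22071 of this locus did not follow. In the CTCF lines, +14632 was called in 1 of 6 libraries with IAA and none without. The mean of +22071 was 24.9 without and 3.33 with IAA. The window +23129 was called in none without IAA and in 4 of 6 with it, with means of 0 and 11.1. Each of +13595 and +13094 was called in 1 of 2 without and 6 of 6 with IAA, with means of 12.3 and 39.9. The groups of +23129, +13595 and +13094 overlapped.

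The other 5 loci kept overlapping numbers of peaks in both media. Cyp1a1, whose locus shares 35776 bp with that of Cyp1a2, held 3 and 3 peaks in the control line without IAA and 3 to 5 with IAA in the CTCF lines. Cyp1b1 held 3 and 2 without and 2 to 5 with IAA. Ahrr held 7 and 5 without and 7 to 9 with IAA. Tiparp held 6 and 6 without and 4 to 6 with IAA, and Nqo1 held 7 and 10 without and 6 to 8 with IAA. In serum the 5 loci held 2 to 8 peaks without and 2 to 6 with IAA.

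**Figure D2:**
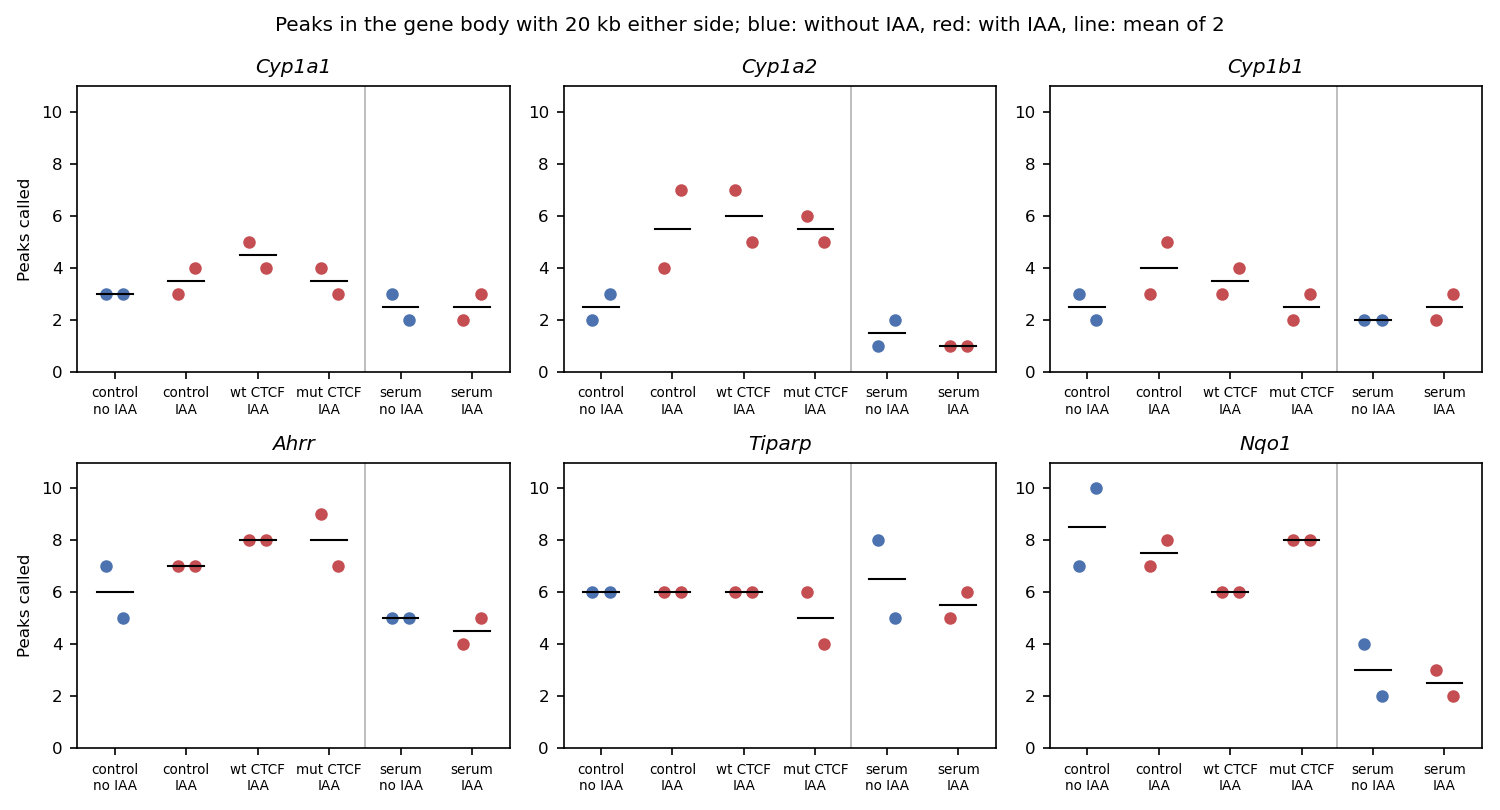
The vertical axis is the number of peaks called in each gene body with 20 kb on either side, for the 8 libraries of the CTCF lines and, right of the grey line, the 4 serum libraries. Points are libraries and bars are means of 2; at Cyp1a2 the 6 red points of the CTCF lines (4 to 7) lie above the 2 blue ones (2 and 3), and the colours overlap or touch in the other panels.

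The number of bases covered by peaks gave more calls than their number. Cyp1a1 had 1845 and 2525 bases covered in the control line without IAA and 2556 to 3515 with IAA in the CTCF lines. In serum it had 1197 and 966 without and 1109 and 1224 with IAA. The exact two-sided permutation p over both media was 0.0357.

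For Cyp1b1 the covered bases were 635 and 619 without IAA and 1074 and 1516 with it in serum, and 1586 and 1363 against 1546 to 2467 in the CTCF lines. The exact permutation p was 0.0238. For Ahrr they were 3791 and 3911 without and 3997 and 4560 with IAA in serum, and 4420 and 3903 against 4408 to 6275 in the CTCF lines, again with an exact permutation p of 0.0238. Cyp1a2 covered 1175 and 2075 bases without and 2224 to 3657 with IAA in the CTCF lines, but 579 and 602 without and 555 and 427 with it in serum.

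In covered bases, 3 of 6 members thus had p under 0.05 in the higher direction, against 5.46% of 44064 genes higher and 1.67% lower, and each adjusted p was 0.623. Peaks of the serum libraries with IAA were longer throughout the genome, with median lengths of 417 and 405 bp against 371 and 381 bp without IAA. In serum 39.2% of all genes covered more bases with IAA with groups apart, against 8.39% fewer. In the CTCF lines the median peak length was 373 and 342 bp without and 283 to 456 bp with IAA, and 4.14% of genes were higher and 3.16% lower. The part of peak length in the members' covered bases was not tested.

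**Figure D3:**
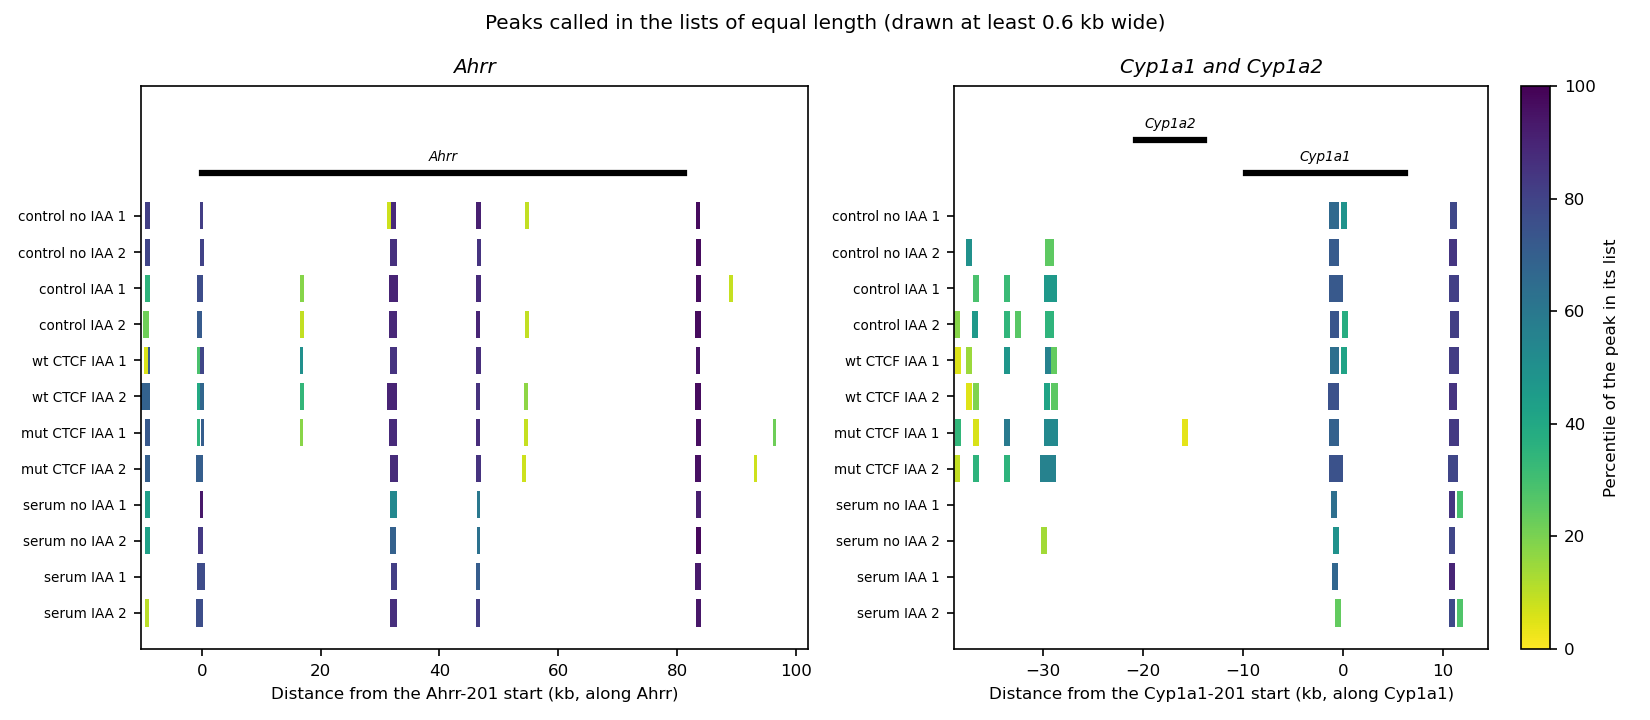
Peaks called around Ahrr (left) and around Cyp1a1 and Cyp1a2 (right), 1 row per library, by distance in kb from the main coding start along Ahrr or Cyp1a1, coloured by percentile within the list (0 to 100), with gene bodies as black bars. The peak about 9 kb upstream of Ahrr is pale or missing in the control line with IAA and in serum with IAA, and the peaks left of Cyp1a2 are more numerous in the 6 libraries of the CTCF lines with IAA.

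Single sites were compared as the windows described above, of which 56 of the 61 in the member loci could be tested over both media. At p under 0.05 by the exact two-sided permutation test, 2 were higher and 4 lower with IAA, against 2.14% higher and 3.94% lower of 189646 windows in the genome. Adjacent windows often share a peak, so these 6 are not independent. None passed the adjustment over all windows, for which the smallest adjusted p was 0.509. With groups apart, 2 of the 51 tested windows were higher and 4 lower in the CTCF lines, against 5.50% and 7.37% of all windows. In serum, 7 of 30 tested windows were higher and 5 lower, against 23.6% and 18.7%. Against all serum-free libraries without IAA, 1 of 48 was higher and 0 were lower, against 1.48% and 0.116%. These shares are near the background.

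The 3 largest mean differences over both media among the 56 windows lay upstream of Ahrr. They were at 702 bp (44.4), 9608 bp (-36.5) and 9105 bp (-31.0), and within serum alone other windows differed by more. When the summit had to lie in the window, these differences became 8.62, 0.466 and -31.0. The window 9105 bp upstream, in intergenic DNA, was at 81.4 and 79.5 in the control line without IAA and at 35.5 and 22.04 with IAA. In the lines with added CTCF it stood at 71.3 and 68.8 (wild type) and at 72.4 and 70.3 (mutated). The serum values were 44.0 and 42.8 without IAA, and 0 and 10.4 with it. Every library with IAA was lower than every library without in both media, with mean differences of -23.7 and -38.2. Of the 56 windows, 3 were apart and lower in both media, Ahrr +2, Ahrr −9105 and Ahrr −9608, and 0 were higher in both, against 1.74% lower and 0.596% higher of all windows tested.

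The exact two-sided permutation p of Ahrr −9105 was 0.0119, the smallest possible, which 2.34% of all tested windows reached, and 0.509 after adjustment. With lists cut to 50% and with −log10 q of at least 10 the p was 0.0714 and the groups were no longer apart in serum, with a mean difference over both media of -16.7 in each. In the CTCF lines the 2 libraries of the control line with IAA were below all 6 others at this window. That held for 3.63% of all 180480 windows, for 19.9% of those with the CTCF consensus and for 2.72% of those without it. The opposite, above all 6 others, held for 6.71%, 3.35% and 6.90%. The window has no consensus match with up to 1 mismatch. An exact match lay outside it, 10508 bp upstream of the main Ahrr start. The match printed above has 2 mismatches, as 21.6% of all windows have at best or better. The adjacent window at 9608 bp had the same value in both media but for replicate 1 of the wild type CTCF line, with both windows at 0 in 1 serum list with IAA, and when the summit had to lie in the window, its groups were no longer apart.

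Of the 51 windows tested in the CTCF lines, 2 had the control line with IAA below the other 6 libraries and 3 had it above them (Ahrr −702, Tiparp +12549 and Nqo1 +12821). The other window below was the one 799 bp upstream of Cyp1b1, which held 2 TNGCGTG matches and the exact CTCF consensus match printed above. Its percentiles were those of the Cyp1b1 promoter, 73.9 and 64.7 in the control line with IAA and 79.3 to 86.0 in the other 6 libraries. In serum, with values of 58.1 and 70.3 without and 62.0 and 65.5 with IAA, the groups overlapped. In the control line alone, 20 of 46 tested windows of the member loci were higher and 8 lower with IAA, against 27.4% and 19.8% of all windows. Of 8283 windows with the CTCF consensus, 61.0% were lower and 11.7% higher there, and of those without it 17.5% were lower and 28.3% higher. This pattern among windows was looked for after the values were seen.

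Another CTCF consensus match, with 1 mismatch, lay in the window centred 16353 bp from the Nqo1 start, beyond the gene's end. The window was called by both serum libraries without IAA, at 14.9 and 71.8, and by neither with IAA. In the CTCF lines it was called in 1 of 2 libraries without IAA, at 12.4, and in none of 6 with it. Windows called by the group without IAA alone were 6.06% of 78864 in serum, those called by the IAA group alone were 6.64%, and the exact two-sided permutation p over both media was 0.0833. The other 2 windows with the consensus were rarely called. Ahrr −10284 held an exact match, 10508 bp upstream of the main start. It was called in 1 of 8 lists of the CTCF lines, that of replicate 2 of the wild type CTCF line with IAA. Its percentile there was 68.8, as for Ahrr −9105, and it did not pass the filter. Cyp1a2 +22071 was at 0 and 49.8 without IAA, at 15.2 and 4.79 in the wild type CTCF line and at 0 in the other 4 libraries with IAA. Both were at 0 in serum. In all, 3 windows of the member loci were called by the IAA group alone in serum and 1 by the group without IAA.

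The 3 serum windows called with IAA alone were weak, the one 374 bp upstream of the internal Cyp1b1 start, in a coding exon, and a pair of adjacent windows over the neighbouring gene Nob1 that share their peaks. The Cyp1b1 window was at 44.4 and 25.7 with IAA, and the pair at 19.7 and 10.3. For the Cyp1b1 window the CTCF lines gave 49.0 and 45.9 without IAA and 41.4 to 63.7 with it, which overlap, and the exact permutation p was 0.0357. It was 0.214 with lists cut to 50% and with −log10 q of at least 10, and 0.107 with the summit in the window. The Nqo1 −8168 window was at 23.6 and 19.3 in the control line without IAA and at most at 4.00 in the 6 libraries with IAA. In serum it was at 44.5 and 0 without and at 0 with IAA, with an exact permutation p of 0.0357. With lists cut to 50% and with −log10 q of at least 10 the difference of this window was 0, and the mean difference of -21.5 became -10.3 without replicate 1 and -32.6 without replicate 2 of the serum libraries without IAA.

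Of the other windows with TNGCGTG, a pair in the Ahrr gene were higher with IAA in serum and overlapped in the CTCF lines. The intronic window at 463 bp from an internal start, with 3 matches, was at 85.0 to 90.1 in all 8 libraries of the CTCF lines. In serum it was at 53.3 and 69.2 without and 82.0 and 86.7 with IAA, which do not overlap, but that difference of 23.1 turned to -34.6 when the summit had to lie in the window. The window 11776 bp into the gene from another internal start, with 2 matches, was at 84.9 to 91.1 in the CTCF lines, and in serum at 60.02 and 62.8 without and 71.0 and 82.0 with IAA, which do not overlap either. Their exact two-sided permutation p-values over both media were 0.0952 and 0.226.

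A distal window 18357 bp from the Nqo1 start, with 1 match, was at 7.12 and 43.2 without IAA and 16.3 to 58.8 with it in the CTCF lines, and at 0 in serum. The window 13593 bp upstream of Cyp1b1, with 2 matches, was at 0 in both libraries without IAA and above 0 in 4 of 6 with IAA, at 9.21 to 42.9. Of the 10 windows with TNGCGTG, 9 could be tested and 1 had p under 0.05, that at the Ahrr coding start, which was lower with IAA, against 2.14% of all windows higher and 3.94% lower.

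The other windows within 1 kb of a start had overlapping groups in both media. Tiparp +32, Tiparp +679 and Nqo1 −4 lie over the main promoter peaks, with means of 91.0 without and 91.5 with IAA for both Tiparp windows and 97.7 and 98.1 for Nqo1 −4 in the CTCF lines. Nqo1 −887 had the values of Nqo1 −4 in all 8 of those lists, and in serum a mean of 0 without and 49.8 with IAA, the latter from 1 of 2 libraries. Means without and with IAA in the CTCF lines were 24.3 and 37.8 for Cyp1a1 −73, 47.4 and 56.3 for Cyp1b1 +166, 44.3 and 74.1 for Ahrr −251, and 0 and 11.2 for Ahrr +606. Their exact two-sided permutation p-values over both media were 0.536, 0.107, 0.524 and 0.750.

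**Figure D4:**
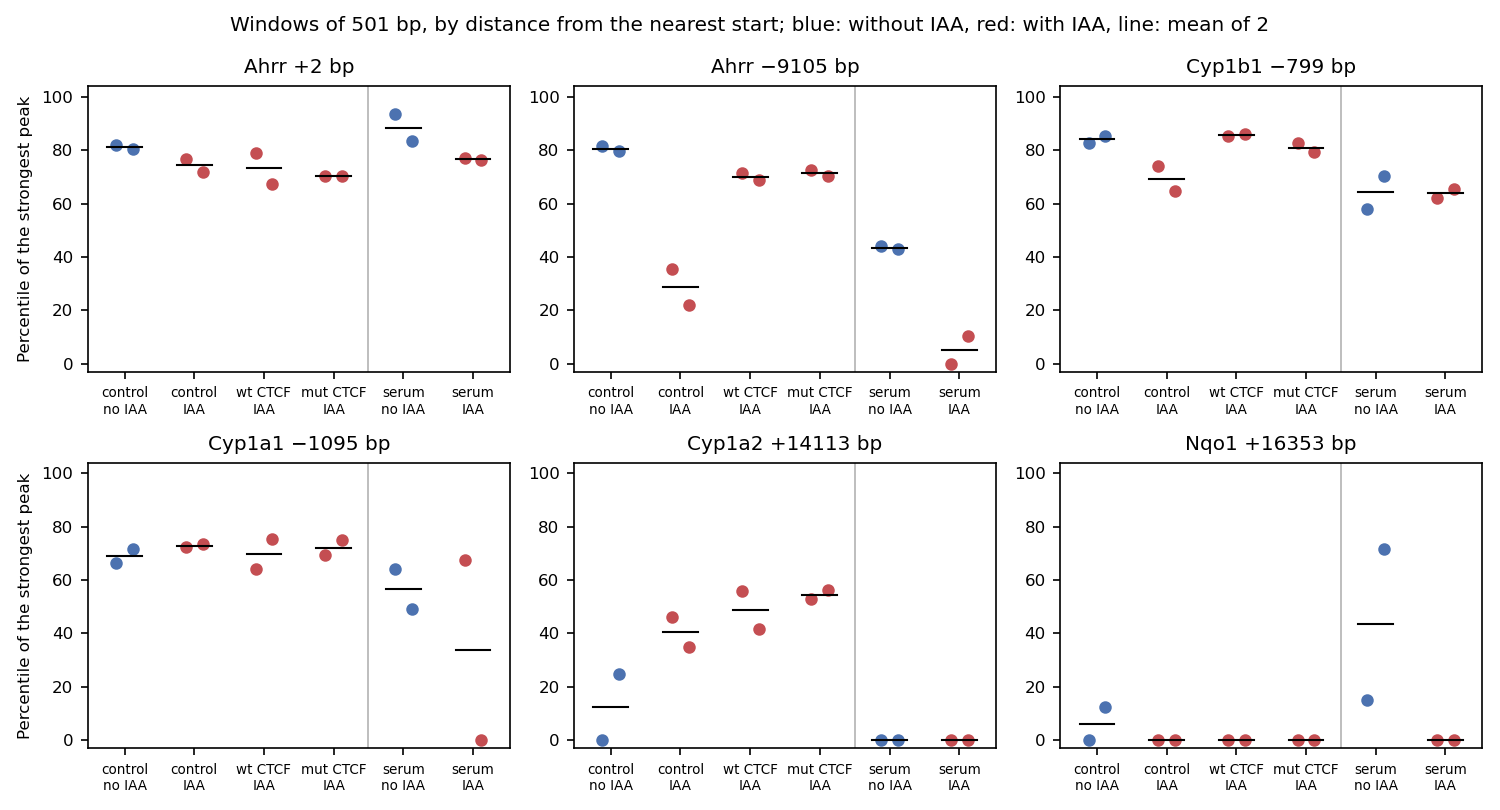
The vertical axis is the percentile of the strongest peak over 6 windows (a summit with 250 bp on either side), named by gene and distance in bp from the nearest start, for the libraries of the CTCF lines and, right of the grey line, of serum; points are libraries and bars means of 2. Red points lie below blue ones in both media for Ahrr +2 and Ahrr −9105, overlap them for Cyp1b1 −799 and Cyp1a1 −1095, and lie above them in the CTCF lines for Cyp1a2 +14113.

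Against all 14 serum-free libraries without IAA, no member was apart at the promoter or by peak number. At the promoter 1.21% of 24210 genes were higher and 0.211% lower in that comparison, and by peak number 0.155% and 0.0896% of 45781. The promoter of Cyp1a1 was called in 9 of 14 of those libraries and in 6 of 6 with IAA, with a median percentile of 21.7 without (range 0 to 57.9) and 59.6 with IAA (46.3 to 63.3). That of Nqo1 was called in all 20, with medians of 96.7 (77.8 to 99.4) and 97.3 (95.9 to 98.2). The median difference of the 5 members tested was 13.6, beside 10.5 over all genes.

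In the CTCF lines, the median difference of the 5 members was 0.59, beside -0.03 over all genes. In serum it was -4.07, beside -0.01. Over the 24 lists cut to 59786 peaks, Cyp1a1 was called in 15 and Cyp1b1 in 20. The genes over 1 Mb away whose promoter percentile followed Cyp1a1 most closely were Pou3f1 and its antisense neighbour Gm2164, each with Pearson r 0.913 over 24 libraries. For Cyp1b1 they were Pigp, with r 0.887, and Eda2r, with r 0.866. These libraries share media, line and list structure within each set, so the values are descriptions.

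Of the AhR machinery, 7 components (Ahr, Arnt, Arnt2, Hsp90aa1, Hsp90ab1, Ptges3 and Ncoa1) were all called in the CTCF lines and in serum. At the promoter, with groups apart, 0 were higher and 1 lower in the CTCF lines, and 3 were higher and 2 lower in serum. Over all genes 5.07% were higher and 7.35% lower in the CTCF lines, and 18.2% and 19.3% in serum, which holds for the next lists too. The receptor gene Ahr stood between 96.1 and 97.3 without IAA and between 94.7 and 97.9 with IAA in the CTCF lines. In serum it was higher with IAA, at 92.9 and 94.4 against 86.0 and 88.5, and over both media its exact two-sided permutation p was 0.250. Its partner Arnt stood between 97.7 and 98.0 without and between 96.7 and 99.3 with IAA in the CTCF lines, and at 93.5 and 98.3 against 91.7 and 98.4 in serum. For Arnt the groups overlapped in both.

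Of 7 other genes reported as AhR-inducible (Aldh3a1, Ugt1a6a, Gsta1, Cyp2s1, Nfe2l2, Slc7a5 and Scin), 4 passed the filter. At the promoter 0 of these were higher and 1 lower in the CTCF lines, and 3 higher and 0 lower in serum. Of 8 genes of the NRF2 pathway, which shares Nqo1 with AhR (Hmox1, Gclc, Gclm, Txnrd1, Srxn1, Slc7a11, Gsr and Keap1), 0 promoters were apart in the CTCF lines and 2 were higher and 3 lower in serum. No promoter of these 3 lists was apart in the same direction in both media, which held for 0.948% of all genes in the higher and 2.39% in the lower direction. In the exact permutation test over both media, 2 of these 22 promoters were under 0.05, both higher, those of Hsp90aa1 and Gclc, each with p 0.0476, against 2.88% of all genes higher and 5.57% lower. By peak number, 2 of the 22 genes were under 0.05 in this test, both lower, Hsp90aa1 (p 0.0357) and Aldh3a1 (p 0.0238), against 0.883% of all genes higher and 1.85% lower. In the CTCF lines 1 of the 22 was higher by peak number with groups apart, Slc7a11 (mean 10.5 without and 14.2 with IAA), and 1 lower, Aldh3a1 (7.50 and 5.50), against 1.43% and 2.05% of genes. These genes were named after their values were seen. In serum by peak number, 1 of the 7 AhR components was higher and 2 lower with groups apart. Of the 7 other AhR-inducible genes 0 were higher and 0 lower, and of the 8 NRF2 genes 2 were higher and 1 lower. Of all genes, 7.72% were higher and 11.5% lower there.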

How the data were processed

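Peak lists of 24 ATAC-seq libraries were used as deposited. Per the submitters' processing notes, Trim Galore, Bowtie2, MACS2 and deepTools were used with the mouse build mm10; versions and settings are not given in the sources used here. Each deposited list gives per peak a fold ratio, a −log10 p and a −log10 q, all relative to the same library. Reads were not used, so depth per library is unknown and no counting intervals are given.

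Lists were cut to the shortest of the libraries compared by −log10 p, peaks were joined to GENCODE vM21 starts and genes, and windows of a summit with 250 bp on either side were placed without overlap and kept where at least 2 libraries called them (233781 of 405819). Sequences came from GRCm38. Python 3.11.15, numpy 2.4.6 and pandas 2.3.3 were used, and the procedures were tested on simulated data. P-values are from exact two-sided permutation tests within sets. A pair of groups of 2 cannot go below p 0.333, and 2 against 6 cannot go below 0.0714, so calls within a medium are counts of groups that do not overlap.

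The members, gene lists and named genes were chosen with earlier results of these data known. One gene of the pathway list is not reported here. The rule for names took all 6 members, Ahr and Arnt, windows within 1 kb of a member start, those separated between groups and those with TNGCGTG, and the 2 genes most like a member called in 6 to 22 of 24 lists. Other windows and list genes named were chosen after their values were seen. The serum libraries with IAA are titled replicates 1 and 2, while their peak names carry 2 and 4; the titles were followed.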

Additional observations from a re-analysis of the deposited data

How the results depend on the processing

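With 2 libraries a group the design limits every call, and percentiles rank peaks within a list and do not measure levels. At the promoter the count of members with groups apart went from 0 to 1 in the CTCF lines with protein-coding starts and with ranking by fold (Ahrr, lower, in both, where 7.08% and 6.22% of genes were). In serum it went from 0 to 1 with protein-coding starts (Ahrr, lower), with ranking by fold (Nqo1, lower, where 22.8% of genes were) and with promoters narrowed to 500 bp of a start (Cyp1b1, higher, where 18% were). Over both media, protein-coding starts gave 1 member with p under 0.05. By peak number, the count of 1 in the CTCF lines (Cyp1a2) became 0 with lists cut to 50%, with −log10 q of at least 10 and with 10 kb flanks. It became 2 with 50 kb flanks, where Cyp1a2 was no longer apart and Cyp1a1 and Cyp1b1 were higher (1.73% of genes), and 2 with bases covered (Cyp1a1 and Cyp1a2, higher, 4.14%). In serum it went from 0 to 1 with −log10 q of at least 10 (Ahrr, higher, 5.54%) and to 3 with bases covered (Cyp1b1 and Ahrr higher, 39.2%, and Cyp1a2 lower, 8.39%). Bases covered gave 2 against all serum-free libraries (Cyp1a1 and Cyp1a2, higher, 3.6%). Over both media it went from 0 to 2 with 50 kb flanks (Cyp1a1 and Cyp1b1, higher, 1.18%) and to 3 with bases covered (Cyp1a1, Cyp1b1 and Ahrr, higher, 5.46%).

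Windows called by one group alone numbered 1 in the CTCF lines, 4 in serum and 1 in all serum-free libraries. At the deposited length they numbered 3 in the CTCF lines and 3 in all serum-free libraries. They fell to 0 in both with lists cut to 50%, with −log10 q of at least 10 and with the summit in the window. In serum these 3 settings gave 0, 2 and 1, and 10 kb flanks gave 2. Of the 6 windows with p under 0.05, a test added after seeing the data, lists cut to 50% left 1, −log10 q of at least 10 left 1 and the summit rule 3. The 28 windows apart in the control line, also added, became 15, 16 and 18. With 50 kb flanks, which take in more windows, these 2 counts were 9 and 39. For the other list settings and the summit rule no share of all windows is given, so those window counts cannot be set against the genome. With 10 kb and 50 kb flanks the number of member windows is not given, so those counts cannot be set against it either.

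Leaving out each library in turn, with the share of all genes apart in parentheses, gave 0 to 0 members apart at the promoter in the CTCF lines and in all serum-free libraries, 2 to 3 in serum (67.4% to 69.5%), and 0 to 0 with p under 0.05. By peak number it gave 1 to 3 in the CTCF lines (4.3% to 12.6%), 1 to 2 in serum (35.2% to 40.1%), 0 to 0 in all serum-free libraries and 0 to 0 over both media; without replicate 1 of the control line without IAA, Ahrr (higher) and Nqo1 (lower) joined Cyp1a2. Windows called by one group alone ranged from 1 to 4, 6 to 9 and 1 to 2, those with p under 0.05 from 3 to 8, and those apart in the control line from 36 to 41. Serum counts rise because 1 library is left in a group. For the counts without parentheses, which include all window counts of this paragraph, no share is given. Those counts therefore cannot be set against the genome, and no difference from the background is read from them.

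Replicate numbers did not pair the libraries: deviations of same-numbered libraries correlated at -0.118 to 0.116 in the CTCF lines and 0.0147 in serum. With the replicate block (64 arrangements, smallest p 0.0312), the count of members under 0.05 was 0 at the promoter and 0 by peak number, and 3 windows of 6 remained under 0.05. With the summit in the window, the difference reversed for Ahrr +463 in serum (-34.6), Ahrr −251 in the control line (-3.89) and Ahrr −9608 in the CTCF lines (0.93). Of the other values of single genes and windows, 1320 moved by less than the replicate SD and 293 by more; the cause was not tested. A call missing from a list is below that list's threshold and does not show closed chromatin.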
